A study of Rattus norvegicus with 69 samples.

Results

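The comparison described here sets hippocampal CA1 tissue of rats deprived of sleep for 24 h (24SD, 16 arrays) against CA1 of rats left in the home cage (HC, 17 arrays). These 33 arrays, chosen by the treatment in the sample titles, are part of 69 arrays of the series, and changes were followed across the 7006 of 8799 probe sets that carry 1 gene symbol, which stand for 4736 genes. All animals were male Fisher 344 (Fischer 344) rats of 3 to 5 months, with 1 array per animal, and came in 2 cohorts (8 24SD and 5 HC arrays in cohort 1, 8 24SD and 12 HC arrays in cohort 2). The 24SD animals lived with a cage mate on small platforms over water, which interrupts sleep when muscle tone is lost. In cohort 1 the HC and sleep-deprived animals alike had learned an active avoidance task, and the 24NES animals described below are not named among the trained. The study reports that it saw no training effect on its stress or array measures, without showing the data. Other arrays of the series, used below for contrast, came from rats sleep deprived for 72 h (72SD, 20 arrays) and from rats of cohort 1 kept for 24 h in such a chamber whose platforms were covered by a grid that left sleep possible (24NES, 10 arrays). The study places its corticosterone sampling, from blood taken at death, at the daily low point of the hormone, and no clock hour is given in the sources used here. Nor do they say which animals shared a chamber, and the p-values treat animals as independent.

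CA1 pyramidal neurons carry the output of the hippocampal circuit and are a usual site for the study of memory and its loss after missed sleep. Waking and confinement act on such tissue through several known routes: glucocorticoid hormone enters the brain and drives genes through its nuclear receptor, the molecular clock runs a daily loop in which Per proteins repress their own transcription, and neuronal firing switches on immediate early genes. A block of CA1 holds glia and vessels besides neurons, so in these bulk extracts fewer cells of a type and less RNA per cell cannot be told apart.

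The arrays were close to one another. Pearson's r of log2 signals between any 2 of the 33 lay between 0.949 and 0.976, and every array had been scaled to a trimmed mean signal of 1502. The ratio of the 3' to the 5' GAPDH probe set, a reading of RNA integrity, was 0.936 to 1.177 in 24SD and 0.965 to 1.176 in HC. The same ratio for actin was wider, at 0.993 to 1.698 in 24SD and 0.901 to 1.673 in HC. Of 13 listed CA1 markers 3 were measured, with changes of 0.21 (Pou3f1), 0.16 (Camk2a) and -0.00 (Man1a1) on the log2 scale. The 24SD array replicate 32 of cohort 2 stood apart in a marker of the choroid plexus: its Ttr (transthyretin) signal was 25272, against at most 1618 on any other array, and its summed signal over 6 choroid markers was 34434.

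HC arrays 6 and 17, which the titles put in cohort 2, stood apart from the rest of that cohort. On a line through the brighter genes that sets the 24SD mean of cohort 2 at -1 and that of cohort 1 at 1, they lay at 0.61 and 0.37, against -0.98 to -0.23 for the other 10 HC arrays of cohort 2 and 0.88 to 1.31 for the 5 of cohort 1. Their summed signals over 12 general neuronal markers (175819 and 176935) were above the other HC arrays of cohort 2 (at most 154824) and within those of cohort 1 (170801 to 200120.0). Their actin 3' to 5' ratios (0.993 and 1.013) were under those of the other HC arrays of cohort 2 (1.094 to 1.673). Why they stood apart was not tested. They were kept in cohort 2 as labelled, and the totals, the named calls they decided and the lists they moved most are also given without them, a choice made after seeing the data.

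Sleep deprivation for 24 h changed few genes past a test adjusted over all annotated probe sets, and the changes were modest in size. With cohort in the model, 7 probe sets were higher in 24SD (0.0999% of those tested) and 5 were lower (0.0714%), which are 6 genes higher and 5 lower. Sult1a1, Ret, Per2, Adipor2, Trpc1 and Fryl rose, and Mmp14, Reg1a, Synpo, Gda and Pgr fell. Without HC arrays 6 and 17 only Gda (-0.32, adjusted p = 0.0165), Adipor2 (0.33, 0.0298) and Per2 (0.42, 0.0425) passed, and the other 9 probe sets kept their direction with adjusted p of 0.0513 to 0.0771. All differences below are 24SD minus HC in log2 MAS5 signal ± SE from limma, and adjusted p is the Benjamini-Hochberg value over the 7006 probe sets unless stated. Where groups are said to be separate in a cohort, the called genes had been chosen on those same arrays. The share of all probe sets with such separation was not counted.

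**Figure D1:**
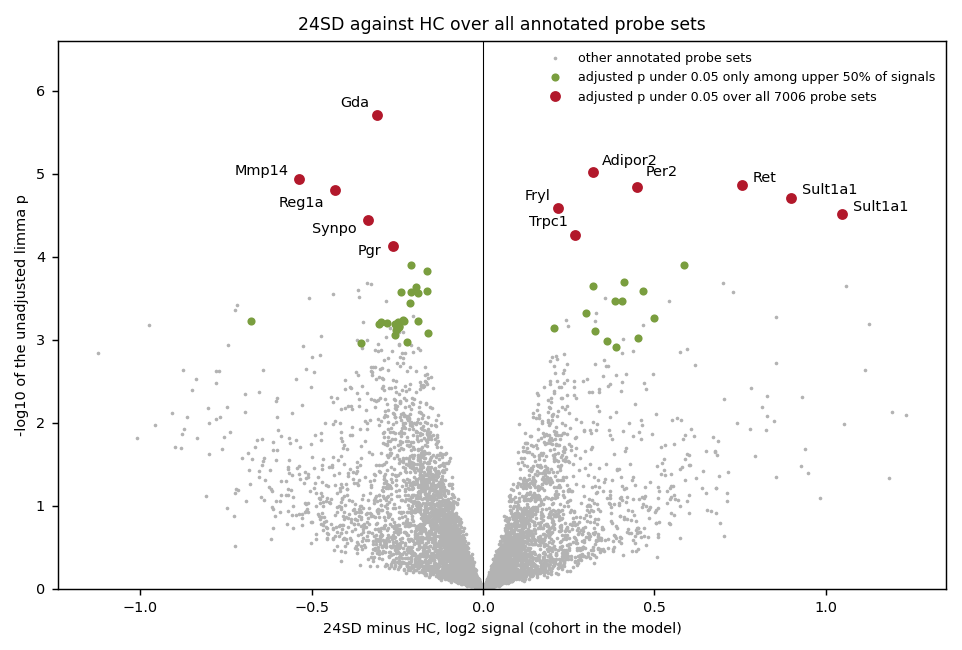
Each point is 1 of 7006 annotated probe sets, with 24SD minus HC in log2 signal across and -log10 of the unadjusted limma p upward. Red points passed the adjusted test over all probe sets (7 higher, 5 lower) and green points passed it only among the upper 50% of signals; Gda has the smallest p and Sult1a1 the largest change among the red points.

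Sult1a1, a sulfotransferase that conjugates phenolic compounds and is a known glucocorticoid-responsive transcript in the rat, had the largest change among the called probe sets. In cohort 1 its signal was 2120 to 2927 in 24SD (median 2602), against 1015, 1197, 1299, 1367 and 1419 in HC. The cohort 2 signal was 1141 to 4807 in 24SD (median 3734), against 993 to 3113 in HC (median 1469). The groups did not overlap in cohort 1, whereas in cohort 2 the 24SD arrays 30 and 31 (1198 and 1141) lay under the HC median and HC arrays 11, 12, 13 and 14 had the highest HC signals (2041 to 3113). The difference was 0.90 ± 0.18 (1.86-fold, adjusted p = 0.0195), with 14 of 16 24SD arrays above the HC median of their cohort. A second probe set from the same transcript gave 1.05 ± 0.22 (adjusted p = 0.0242).

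Per2, a repressor of the circadian clock, rose in both cohorts. Its signal in cohort 1 was 554 to 1003 in 24SD (median 810.0), against 471, 516, 536, 545 and 578 in HC. In cohort 2 it was 842 to 1433 in 24SD (median 1130), against 570.1 to 1099 in HC (median 940.5). A single 24SD array of cohort 1 lay within the HC range, and in cohort 2 the ranges overlapped. The difference was 0.45 ± 0.09 (1.36-fold, adjusted p = 0.0187), and 15 of 16 24SD arrays were above the HC median of their cohort.

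The promoters of Per2 and Sult1a1 are shown because they belong to the clock and the glucocorticoid list whose values follow. Each is the 250 bases before the start used in the RefSeq promoter table (GRCr8), which for Per2 lies 76 bases inside the outermost end of the annotated gene and for Sult1a1 is that end. Both are read 5' to 3' on the gene's own strand, and capitals mark a D-box (TTANGTAA), the element read by Dbp and its relatives. Per2 lies at chr9:99496994-99497243 on the minus strand and Sult1a1 at chr1:190706113-190706362 on the minus strand.
Per2: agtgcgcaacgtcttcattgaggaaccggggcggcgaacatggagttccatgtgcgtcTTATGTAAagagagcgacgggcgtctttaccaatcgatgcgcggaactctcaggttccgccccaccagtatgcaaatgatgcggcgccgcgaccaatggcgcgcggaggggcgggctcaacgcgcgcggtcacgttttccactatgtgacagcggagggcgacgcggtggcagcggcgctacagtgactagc
Sult1a1: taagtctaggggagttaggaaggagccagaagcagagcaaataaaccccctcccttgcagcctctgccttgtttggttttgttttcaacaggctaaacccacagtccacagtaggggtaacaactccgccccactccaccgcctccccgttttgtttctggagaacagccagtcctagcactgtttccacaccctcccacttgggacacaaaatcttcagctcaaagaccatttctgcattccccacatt
The D-box of Per2 stands 192 to 185 bases before that start, and the same letters on either strand occur in 2.04% of 33469 rat promoters of that length. The Sult1a1 window held no match on either strand to the D-box, the E-box (CACGTG, in 5.59% of promoters), the cAMP response element (TGACGTCA, 1.59%), a core of the glucocorticoid response element (ACANNNTGT, 5.81%) or the endoplasmic reticulum stress element (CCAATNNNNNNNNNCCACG, 0.0657%). A match is a description of these letters and not a measured site.

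Ret, the receptor tyrosine kinase for ligands of the GDNF family, was read by a dim probe set. Its signal in cohort 1 was 147 to 319 in 24SD (median 212), against 79.1, 99.8, 101.0, 110.4 and 122 in HC. For cohort 2 the values were 144 to 459 in 24SD (median 378), against 156 to 331 in HC (median 201). The groups were separate in cohort 1, and 24SD arrays 30 and 31 were again among the low values in cohort 2 (197 and 144). Ret rose by 0.75 ± 0.15 (1.69-fold, adjusted p = 0.0187), but a brighter Ret probe set gave -0.18 ± 0.07 (unadjusted p = 0.0208), so the direction for the gene is not settled.

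Adipor2, a receptor for the fat-derived hormone adiponectin, had signals of 1195 to 1708 in 24SD of cohort 1 (median 1421), against 949, 957, 1010, 1102 and 1119 in HC. In cohort 2 it had 1517 to 2167 in 24SD (median 1824), against 1374 to 1856 in HC (median 1555). The groups were separate in cohort 1 only. The difference was 0.32 ± 0.06 (1.25-fold, adjusted p = 0.0187), while another Adipor2 probe set gave -0.08 (unadjusted p = 0.152).

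Fryl, related to the Drosophila furry protein, and Trpc1, a subunit of nonselective cation channels, rose by the smallest amounts of the 6. All 16 24SD arrays were above the HC median of their cohort for each. Fryl signal was 1616 to 2023 in 24SD of cohort 1, against 1412 to 1689 in HC, and 2503 to 3023 in 24SD of cohort 2, against 2011 to 2710.0 in HC (0.22 ± 0.04, adjusted p = 0.0225). Trpc1 signal was 891 to 1050 in 24SD of cohort 1, against 706 to 963 in HC, and 1008 to 1262 in 24SD of cohort 2, against 682 to 1088 in HC (0.27 ± 0.06, adjusted p = 0.0354). A brighter Trpc1 probe set gave 0.08 (unadjusted p = 0.134).

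Among the genes that fell, Gda had the smallest p of all probe sets. It encodes guanine deaminase (cypin), which turns guanine into xanthine and takes part in dendrite branching. Signal in cohort 1 was 3683 to 4816 in 24SD (median 4045), against 4604, 5147, 5289, 5443 and 6114 in HC. In cohort 2 it was 3556 to 5037 in 24SD (median 3925), against 4204 to 5273 in HC (median 4944). Only 1 of 16 24SD arrays was above the HC median of its cohort, and the difference was -0.31 ± 0.05 (1.24-fold lower, adjusted p = 0.0136). A second probe set on the same transcript gave -0.36 (unadjusted p = 0.000305) and another, dim one gave 0.52 (unadjusted p = 0.042).

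Mmp14, a membrane-bound metalloproteinase that cuts matrix proteins, fell by 0.54 ± 0.10 (1.45-fold lower, adjusted p = 0.0187). Its signal in cohort 1 was 352 to 521 in 24SD (median 447), against 569, 580, 648, 698 and 715 in HC, with no overlap. Cohort 2 gave 189 to 564 in 24SD (median 336), against 382 to 608 in HC (median 511). The 2 cohorts gave nearly the same change, -0.55 and -0.53.

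Synpo encodes synaptopodin, an actin-binding protein of the spine apparatus in dendritic spines. Its signal in cohort 1 was 922 to 1305 in 24SD (median 1204), against 1337, 1338, 1708, 1762 and 1788 in HC. In cohort 2 it was 656 to 852 in 24SD (median 757), against 749 to 1190.5 in HC (median 897). No 24SD array was above the HC median of its cohort, and the groups were separate in cohort 1 (-0.34 ± 0.07, adjusted p = 0.0256).

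The last 2 were dim. Reg1a, a secreted lectin-related protein best known from pancreas, had signals of 134 to 209.8 in 24SD and 175 to 273 in HC of cohort 1, and 106 to 142 in 24SD and 128 to 231 in HC of cohort 2 (-0.43 ± 0.09, adjusted p = 0.0187). Pgr, the progesterone receptor, had 309 to 419 in 24SD and 416 to 459 in HC of cohort 1, and 233 to 328 in 24SD and 266 to 384 in HC of cohort 2 (-0.26 ± 0.06, adjusted p = 0.0436). For each, no 24SD array exceeded the HC median of its cohort. A second Reg1a probe set was near 5 in signal, and 3 other Pgr probe sets had unadjusted p of 0.502 or more.

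**Figure D2:**
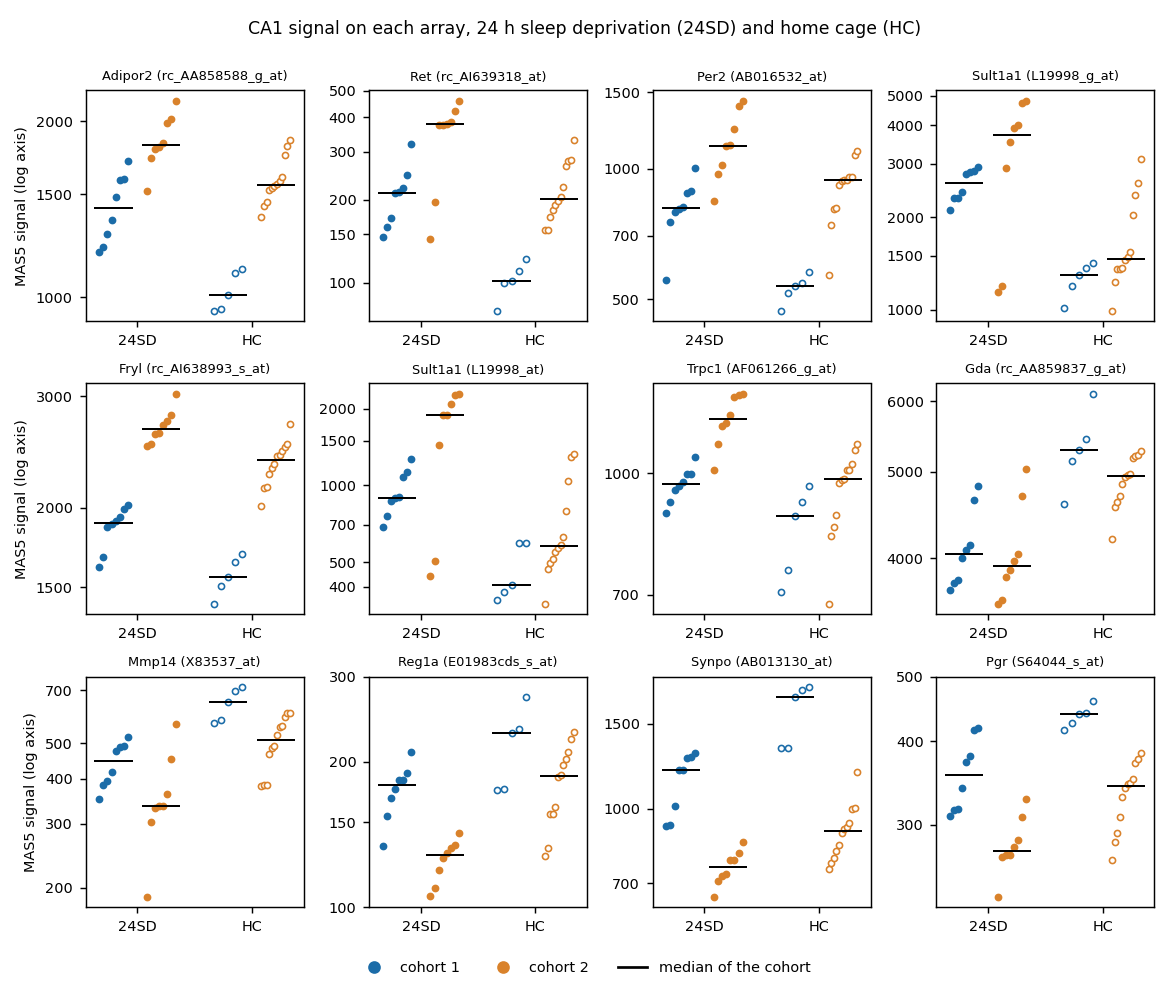
MAS5 signal (log axis) of the 12 called probe sets on each of the 33 arrays, 24SD left and HC right, with cohort 1 in blue, cohort 2 in orange and the median of each cohort as a bar. Sult1a1, Ret, Adipor2, Mmp14 and Synpo separate the groups in cohort 1, while 2 24SD arrays of cohort 2 sit low for Sult1a1 and Ret. The 12 were chosen for their difference on these same arrays.

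A second reading took the brightest probe set of each gene and only the upper 50% of signals, which left 2689 genes with a mean signal of at least 443. There, 17 genes were higher (0.632%) and 28 lower (1.04%), and 7 of the 11 genes above were among them. Over both readings 49 genes passed, 19 higher and 30 lower. The excess of lower calls depended on the scale of the arrays: with every array centred on its median, 24 genes were higher and 3 lower, and over all probe sets 17 were higher and 3 lower. All 49 genes changed in the same direction in both cohorts, and 37 had an unadjusted p under 0.05 in cohort 1 alone and 43 in cohort 2 alone. The 49 were chosen on the pooled arrays of both cohorts, which favours like signs and small p in each. Over all 7006 probe sets, 813 had an unadjusted limma p under 0.05 in cohort 1 alone and 612 in cohort 2 alone.

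The genes that rose in this second reading had varied roles. Casp2, a caspase, rose by 0.59 ± 0.14 (adjusted p over the 2689 genes = 0.0228), with 1.13 in cohort 1 and 0.24 in cohort 2 (unadjusted p of the cohort difference = 0.000569). Signal of Casp2 in cohort 1 was 343 to 661 in 24SD, against 154 to 368 in HC. Tac3, which encodes neurokinin B in the rat, rose by 0.41 ± 0.10, with 0.39 and 0.43 in the 2 cohorts. Il33, an alarmin cytokine, rose by 0.30 ± 0.08, and Wfdc1, a secreted protein of the whey acidic family, rose by 0.50 ± 0.13. The scaffold protein Mpdz (0.41), the cyclophilin-related Nktr (0.47), the RNA helicase Ddx42 (0.32) and the lipid kinase Dgka (0.21) also passed.

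Neurod1, a basic helix-loop-helix factor abundant in dentate granule cells, rose by 0.39 ± 0.10 (adjusted p over the 2689 genes = 0.0319), although a second Neurod1 probe set gave 0.01. Its signal in cohort 1 was 2107 to 3092 in 24SD, against 1429 to 1809 in HC, with no overlap. Of 10 listed dentate granule cell markers 5 were measured, and 4 of the 5 had positive changes, Il1rap being the other at unadjusted p under 0.05 (0.29 ± 0.11). Their summed signal, which includes Neurod1, was 6667 to 7618 in 24SD and 4944 to 6650 in HC of cohort 1, and 6810.0 to 10773 in 24SD and 5225 to 9766 in HC of cohort 2. Prox1, a defining marker of these cells, was not analysed here, and the part of dissected dentate tissue in the change of Neurod1 was not tested.

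Most lower genes of this reading had changes of under 0.31 in size, Kcnj10 (-0.68), Mmp14 (-0.54), Lrba (-0.36) and Synpo (-0.34) being the exceptions. Fez1, a kinesin adaptor needed for axon growth, fell by 0.21 ± 0.05 (adjusted p over the 2689 genes = 0.0319), and Exoc6, a subunit of the exocyst that tethers secretory vesicles, fell by 0.24 ± 0.06 (0.0319). The T-type calcium channel Cacna1g fell by 0.23 ± 0.06 (0.0399) and the presynaptic adhesion protein Nrxn3 fell by 0.19 ± 0.05 (0.0399). Yif1a (-0.16), Glg1 (-0.21), Mcm7 (-0.20), Auh (-0.16), Ciao1 (-0.19) and the membrane-cytoskeleton linker Ezr (-0.21) were also called. After median centring, Gda, Mmp14 and Synpo were the lower genes that still passed. Without HC arrays 6 and 17 the totals were 15 higher and 14 lower, and Cacna1g, Nrxn3, Auh, Ezr, Il33 and Wfdc1 were among those that no longer passed (adjusted p of 0.0528 to 0.0749). Leaving out single arrays moved the total of 45 to between 8 (without 24SD replicate 32, the array with high Ttr) and 75 (without 24SD replicate 30), and the other arrays that moved it are named with the settings of the processing.

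**Figure D3:**
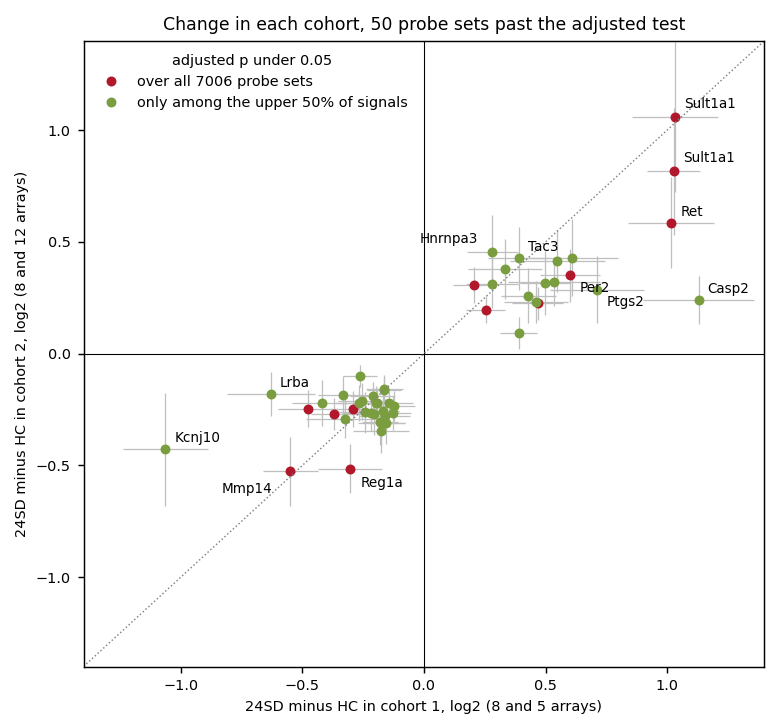
Change in cohort 1 (across, 8 24SD and 5 HC arrays) against change in cohort 2 (upward, 8 24SD and 12 HC arrays), in log2 signal ± SE, for the 50 probe sets past the adjusted test in either reading; the dotted line marks equal change. All points lie in the quadrants of like sign; they were chosen on the pooled arrays, and Casp2 and Kcnj10 sit farthest toward a larger change in cohort 1.

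Since the test adjusted over all genes passed few members of any pathway, lists are described by counts at an unadjusted p under 0.05, with each gene read by its brightest probe set. The lists were chosen with earlier results of these data known, so their counts are descriptions and not tests. Over all 4736 genes, 5.22% were higher and 10.0% lower by that rule and the median change was -0.03, or 0.00 after median centring. The 2 shares are the background for the counts that follow, except that after median centring they were 8.02% higher and 6.04% lower, and without HC arrays 6 and 17 they were 4.58% and 8.51%.

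Genes induced by glucocorticoids leaned upward, in a list chosen, like the others, with earlier results of these data known. Of 13 measured, 6 were higher and 0 lower, and the median change was 0.18 (0.17 in cohort 1 and 0.18 in cohort 2). Besides Sult1a1, these were Gpd1 (glycerol-3-phosphate dehydrogenase, 1.11 ± 0.34, adjusted p over the 2689 genes = 0.0624), Cebpb (0.33 ± 0.10, 0.0605), Pdk4 (0.68 ± 0.28), Klf9 (0.18 ± 0.07) and the kinase Sgk1 (0.43 ± 0.19, unadjusted p = 0.0316). Gpd1 signal in cohort 1 was 508 to 1788 in 24SD (median 1273), against 235 to 689 in HC (median 343), and in cohort 2 it was 226 to 1907 in 24SD (median 1653), against 248 to 1631 in HC (median 727). Sgk1 separated the groups in cohort 1 (2563 to 4781 in 24SD, 1751 to 2284 in HC) and not in cohort 2 (1328 to 5006 in 24SD, 1437 to 4813 in HC). The receptors themselves had changes of -0.02 (Nr3c1, the glucocorticoid receptor, unadjusted p = 0.815) and 0.12 (Nr3c2, the mineralocorticoid receptor, 0.148), while Hsd11b1, which regenerates active glucocorticoid inside cells, had 0.22 ± 0.06 (0.00171).

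Of 11 measured clock genes, 3 were higher (Per2, Nr1d2 and Dbp) and 1 was lower (Tef). Nr1d2, a nuclear receptor that represses clock genes, had 0.37 ± 0.11 (adjusted p over the 2689 genes = 0.0624), and Dbp, an activator acting on D-boxes, had 0.15 ± 0.07 (unadjusted p = 0.0497). The median of the list was -0.01, and it turned to 0.02 after median centring. Without HC arrays 6 and 17 the clock list had 2 higher and 0 lower, and its median was -0.07. Of 9 clock genes with a promoter in the RefSeq table, 4 held an E-box and 1, Per2, held a D-box.

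Immediate early genes had mostly negative changes, though members passed the unadjusted threshold in both directions. Of 21 measured, 3 were higher and 4 lower, and 15 had a negative change (median -0.15). After median centring 3 were higher and 2 lower, and 15 had a negative change (median -0.11). Without HC arrays 6 and 17 the count was 3 higher and 5 lower, and 17 had a negative change (median -0.18). Ptgs2, the inducible cyclooxygenase, rose by 0.45 ± 0.12 (adjusted p over the 2689 genes = 0.0417), with 0.71 in cohort 1 and 0.29 in cohort 2, though a second probe set gave -0.02 and the adjusted p was 0.0793 without HC arrays 6 and 17. Fos (-0.14), Arc (-0.15) and Egr1 (0.01) had unadjusted p of 0.113 or more on their brightest probe sets, and 3 dimmer Egr1 probe sets gave -0.17 to -0.25. Homer1, which shapes the postsynaptic scaffold, had 0.02 ± 0.05 (unadjusted p = 0.709).

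Chaperones leaned upward. Among 13 measured genes of the endoplasmic reticulum, 3 were higher and 0 lower (median 0.10): Hspa5 (BiP, 0.20 ± 0.07, unadjusted p = 0.00676), the stress sensor Eif2ak3 (0.43 ± 0.16) and Pdia6 (0.22 ± 0.10). Among 14 heat shock genes 3 were higher and 0 lower (median 0.06), with Cryab at 0.57 ± 0.16 (adjusted p over the 2689 genes = 0.0512), Hspa9 at 0.41 ± 0.12 (0.0515) and Hspd1 at 0.12 ± 0.05. The cold-inducible Cirbp had -0.20 (unadjusted p = 0.222).

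Lists of RNA-binding, ribosomal, oxidative phosphorylation and proteasome genes held no lower member at this threshold, whereas 26 translation factors had 2 higher and 2 lower (median -0.015). RNA-binding and splicing genes had 8 of 19 higher (median 0.12), led by Hnrnpa3, which rose by 0.39 ± 0.11 (adjusted p over the 2689 genes = 0.0487, and 0.0837 without HC arrays 6 and 17), and Ybx3 (0.34 ± 0.11). Cytosolic ribosomal proteins had 7 of 40 higher and a positive change in 34 (median 0.09), with Rpl14 (0.16 ± 0.05) and Rpl18 (0.14 ± 0.05) first by p, and 2 of 40 higher without HC arrays 6 and 17. Oxidative phosphorylation had 8 of 55 higher and a positive change in 43 (median 0.06), led by Uqcrc2 (0.24 ± 0.07), and 5 of 55 higher without those arrays. Proteasome subunits had 6 of 27 higher and a positive change in 22 (median 0.04), among them Psma2 (0.22 ± 0.08) and Psmb3 (0.13 ± 0.05).

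Presynaptic genes leaned the other way. Of 43 measured genes of presynaptic vesicle release, 0 were higher and 11 lower, and 35 had a negative change (median -0.12 in the pooled fit, -0.14 in cohort 1 and -0.12 in cohort 2). After median centring the count was 0 higher and 5 lower and the median -0.09, against 8.02% higher and 6.04% lower over all genes on that scale. Without HC arrays 6 and 17 the count was 0 higher and 8 lower, and 30 had a negative change (median -0.08). General neuronal markers had 9 negative changes of 12 measured (16 listed), with 2 higher and 4 lower (median -0.07), and with those arrays left out 2 higher and 2 lower. Their summed signal was 170965 to 184532 in 24SD and 170801 to 200120.0 in HC of cohort 1, and 132672 to 148524 (median 140408) in 24SD and 134470.0 to 176935 (median 150135) in HC of cohort 2. The part of neuronal content in the presynaptic values was not tested. Exoc6 and Nrxn3 were called above. The complexins, which clamp the vesicle fusion machinery, had -0.39 ± 0.12 (Cplx1, adjusted p over the 2689 genes = 0.0832) and -0.37 ± 0.12 (Cplx2, 0.0833), and the SNARE protein Snap25 had -0.24 ± 0.09 (0.142). Cplx1 signal in cohort 1 was 3658 to 5757 in 24SD (median 4811), against 5308 to 7162 in HC (median 6101), and in cohort 2 it was 1887 to 3108 in 24SD (median 2908), against 1907 to 6974 in HC (median 3499). The ranges overlapped in both cohorts.

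Neuronal differentiation and axon guidance genes had 1 of 28 higher (Neurod1) and 10 lower (median -0.10). After median centring the count was 2 higher and 7 lower (median -0.06). Fez1 and the netrin receptor Unc5b fell (Unc5b by 0.23 ± 0.06, adjusted p over the 2689 genes = 0.0399, and 0.0693 without HC arrays 6 and 17), Unc5a had -0.40 ± 0.14 and the adhesion molecule Ncam1 had -0.25 ± 0.08. Among 16 ionotropic glutamate receptor subunits 1 was higher and 2 lower (median -0.06). The NMDA receptor subunit Grin2d fell by 0.26 ± 0.07 (0.0399), whereas Gria1 had -0.03, Grin1 -0.16 (unadjusted p = 0.0559) and Gria2 0.14 (0.0363, with 0.40 in cohort 1 and -0.02 in cohort 2). Of 13 voltage gated calcium channel subunits 1 was higher and 4 lower (median -0.05), with Cacna1g called, Cacnb1 at -0.23 ± 0.07 and Cacna1a at -0.24 ± 0.10.

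Potassium channels had 2 of 54 higher and 8 lower (median -0.03, and 0.01 after median centring). Kcnj10, the inwardly rectifying channel through which astrocytes buffer potassium, fell by 0.68 ± 0.18 (adjusted p over the 2689 genes = 0.0398, and 0.069 without HC arrays 6 and 17). Its signal in cohort 1 was 373 to 718 in 24SD, against 724 to 1266 in HC, and in cohort 2 it was 292 to 927 in 24SD, against 338 to 1273 in HC. Of 14 measured astrocyte markers of 18 listed, 0 were higher and 4 lower (Kcnj10, Ntsr2, Aqp4 and Sparcl1), with a summed signal of 208272 to 239197 in 24SD and 201841 to 258930 in HC of cohort 1 and of 208598 to 257922 in 24SD and 203380 to 263346 in HC of cohort 2. After median centring 0 astrocyte markers were higher and 2 lower. The part of astrocyte content in the change of Kcnj10 was not tested. Of 12 microglial markers 0 were higher and 0 lower, and of 11 oligodendrocyte markers 0 were higher and 1 lower (Gjb1, -0.24 ± 0.08). Meningeal markers had 3 higher and 3 lower of 11 measured. Blood markers, 5 measured, had 0 higher and 0 lower in the pooled fit but moved apart by cohort. In cohort 1 alone all 5 had a negative change and 2 were lower (median -0.39). In cohort 2 alone 2 were higher and 0 lower (median 0.09). The part of blood content in other changes was not tested.

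Extracellular matrix genes had 0 of 26 higher and 6 lower (median -0.07, with -0.11 in cohort 1 and 0.01 in cohort 2). After median centring 2 of them were higher and 4 lower (median -0.035). Mmp14 was called, the metalloproteinase inhibitor Timp1 had -0.20 ± 0.06 and the laminin chain Lamc1 -0.18 ± 0.06. Cholesterol synthesis and sterol regulation had 0 of 16 higher and 5 lower (median -0.06), among them Sqle (-0.22 ± 0.08) and Srebf1 (-0.23 ± 0.08). Of 14 genes of adenosine and purine metabolism 2 were higher and 3 lower. The adenosine A1 receptor Adora1 had 0.09 (unadjusted p = 0.659) and adenosine kinase, Adk, had 0.17 (0.0473). Of 7 neurotrophins and receptors 0 were higher and 0 lower, with Bdnf at -0.00 and its receptor Ntrk2 at -0.04.

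**Figure D4:**
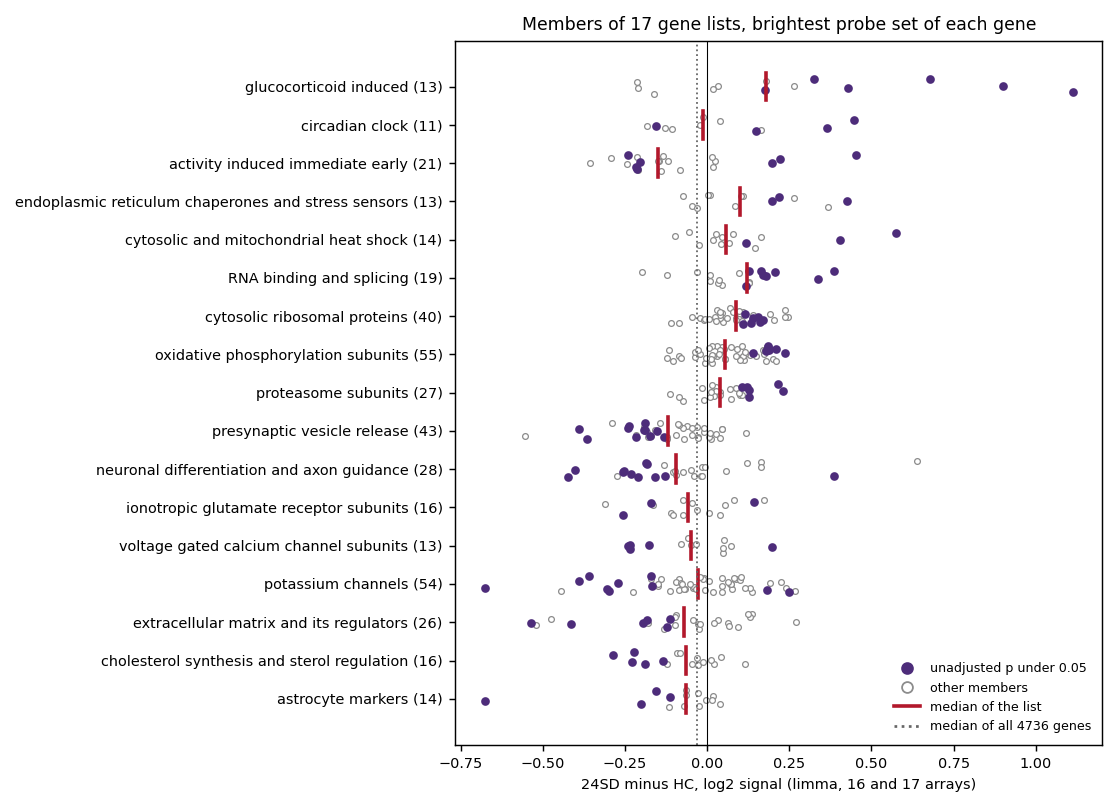
Change (24SD minus HC, log2 signal) of each measured member of 17 gene lists, read by its brightest probe set, with the number measured in brackets. Filled points have an unadjusted p under 0.05, the red bar is the median of the list and the dotted line the median of all 4736 genes (-0.03); glucocorticoid-induced genes extend farthest right, and presynaptic genes lie mostly left.

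Within single cohorts the adjusted test called fewer probe sets than on the pooled arrays. In cohort 1 alone, 3 probe sets were higher (0.0428%) and 3 lower (0.0428%). The higher ones were Sult1a1 (1.03), Cebpb (1.02) and Rbp4 (0.67), with 0.82, 0.49 and 0.29 in cohort 2. The lower ones were Kcnj10 (-1.06), Rgs4 (-0.97) and Gstp1 (-0.64), with -0.43, 0.06 and -0.01 in cohort 2. In cohort 2 alone limma called 0 probe sets at the adjusted threshold and 612 at an unadjusted p under 0.05. A test of the difference between cohorts called 0 of 7006 probe sets (504 at an unadjusted p under 0.05), and among the 2689 brighter genes it called 2 (0.0744%), each with a more positive change in cohort 1.

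These were Psma2, a subunit of the proteasome core, and Dync1i2, an intermediate chain of the dynein motor. Psma2 signal in cohort 1 was 3540 to 5089 in 24SD (median 4565), against 2407 to 3746 in HC (median 3077). Cohort 2 gave 4356 to 5559 in 24SD (median 5303), against 4610 to 6097 in HC (median 5205). The difference between the cohorts' changes was 0.58 ± 0.12 for Psma2 and 0.55 ± 0.11 for Dync1i2 (adjusted p = 0.0428 each over the 2689 genes). Without HC arrays 6 and 17 the values were 0.59 ± 0.12 and 0.54 ± 0.11 (adjusted p = 0.0513 each), so 0 of 2689 genes were then called (262 at an unadjusted p under 0.05). Training and every other difference between the cohorts cannot be told apart here.

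Against the longer exposure, no probe set separated the 2 durations: limma called 0 of 7006 for 72SD minus 24SD (326 at an unadjusted p under 0.05) and 0 of 2689 brighter genes (112 unadjusted). For Sult1a1 72SD minus 24SD was -0.39 ± 0.17 (unadjusted p = 0.0287). The changes from HC stood side by side as 0.51 in 72SD and 0.90 in 24SD for Sult1a1, 0.49 and 0.45 for Per2, 0.51 and 0.75 for Ret, -0.38 and -0.54 for Mmp14, and -0.17 and -0.34 for Synpo. Both exposures were set against the same 17 HC arrays.

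Against the covered-platform exposure of the same length, all in cohort 1, 24SD was lower for 2 probe sets (0.0285% of 7006) and higher for none (399 at an unadjusted p under 0.05 in either direction). These were Tnfrsf11b, the decoy receptor osteoprotegerin (-1.20 ± 0.19, adjusted p = 0.0438), and L3hypdh, a hydroxyproline dehydratase (-1.87 ± 0.32, 0.0457), both too dim for the upper 50% of signals, where limma called 0 genes (157 unadjusted). Because 24NES rats are not named among the trained, the chamber condition and training cannot be told apart in 24SD against 24NES or in 24NES against HC. Sult1a1 was 0.63 ± 0.12 higher in 24SD than in 24NES (adjusted p = 0.149). Set against the same 5 HC arrays of cohort 1, Sult1a1 differed by 1.03 in 24SD and by 0.40 in 24NES. The values were 0.60 in 24SD and 0.75 in 24NES for Per2, -0.55 in 24SD and -0.51 in 24NES for Mmp14, and -0.48 in 24SD and -0.39 in 24NES for Synpo. Taken directly, 24SD minus 24NES was -0.15 ± 0.15 for Per2, -0.04 ± 0.10 for Mmp14 and -0.09 ± 0.14 for Synpo (unadjusted p = 0.356, 0.732 and 0.554), so these data neither separate the exposures on these genes nor show that they act alike.

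**Figure D5:**
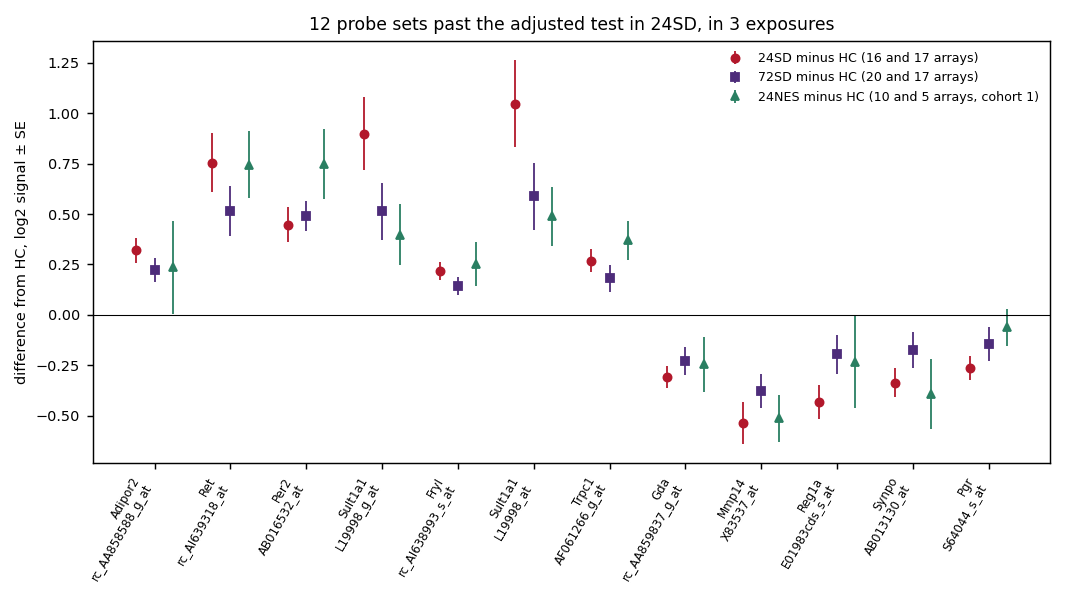
Difference from HC in log2 signal ± SE for the 12 probe sets called in 24SD, in 24SD (16 and 17 arrays), 72SD (20 and 17 arrays) and 24NES (10 and 5 arrays of cohort 1 only). All 3 point the same way for every probe set, all share HC arrays, and 24SD was chosen for its difference.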

How the data were processed

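RNA of each CA1 block was hybridised to 1 Affymetrix RGU34A array per rat, and the values used are the deposited MAS5 signal intensities, which the authors scaled per array, per the labels and the study's methods (no MAS5 version is given in the sources used here). Presence calls were not used here. Signals were floored at 1 and taken to log2. Of 8799 probe sets, 59 were controls, 7006 had 1 gene symbol, 308 several and 1426 none, and 99.7% of those with 1 symbol matched RefSeq (GRCr8) by gene number. limma 3.58.1 in R 4.3.3 (lmFit, eBayes, two-sided moderated test) compared 24SD with HC with cohort as a covariate, adjusted by Benjamini-Hochberg over all annotated probe sets (threshold 0.05), and again over the brightest probe set of each gene in the upper 50% of mean signal, which stands in for the presence filter of the methods. No array was left out, and counts without HC arrays 6 and 17 were added after seeing the data. The fits were tested on simulated data. Figures used Python 3.11.15 and matplotlib 3.10.9. Genes were named if called (up to 15 per direction), if among the first by p in a list, or if usual members of a list. Members, lists and tests were chosen with earlier results of these data known. Arrays carry no read depth, so their number limits the precision. Alternatives covered scaling, the floor, the signal filter, the variance model, the cohorts, the methods' ANOVA with its 2 SD removal of values, and each array left out in turn.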

Additional observations from a re-analysis of the deposited data

Results flagged for a closer look

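Of 162 groups of values examined for a sample far from the others, 11 held such a sample, and chance gives about 1 in 20. The HC arrays of cohort 2, among them those said above to stand apart, were not examined in this way. Their absence from the list below is therefore not a result. In 24SD of cohort 1, Mcm7 was 986 on replicate 24 (749 to 845 on the others), Neurod1 was 3092 on replicate 18 (2107 to 2436), Il33 was 482 on replicate 24 (668 to 779.6), Atxn7l3 was 1084 on replicate 22 (706 to 835) and Hnrnpa3 was 4709 on replicate 19 (3683 to 4096). In 24SD of cohort 2, replicate 30 was apart for Casp2 at 639 (874 to 1006 on the others), for Ap1s1 at 2356 (2905 to 3382) and for the GAPDH 3' to 5' ratio at 1.18 (1.01 to 1.09), and Lrba was 902 on replicate 33 (535 to 630.3). In HC of cohort 1, Ap1s1 was 2921 on replicate 5 (3318 to 3454) and Tap2 was 441 on replicate 4 (507 to 521).

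The change with sleep deprivation differed between the cohorts by a tested 0.58 for Psma2 and 0.55 for Dync1i2 on the log2 scale, cohort 1 minus cohort 2. Within cohorts, Psma2 changed by 0.57 ± 0.11 and -0.01 ± 0.06, and Dync1i2 by 0.53 ± 0.10 and -0.01 ± 0.07, in cohort 1 and cohort 2. Without HC arrays 6 and 17 neither difference passed the adjusted threshold.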

How the results depend on the processing

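All 50 probe sets called in either reading kept their direction under every setting run on them. They had been chosen for their difference on these arrays, and the settings reuse those arrays, so kept directions were likely beforehand. Over all probe sets the 12 calls became 19 with quantile normalization (13 higher), 20 with median centring (17 higher) and 30 with a floor of 50 (11 higher). They became 27 with the 72SD arrays in a fit of 53 arrays, 1 when the model had no cohort term and 7 after standardizing within cohorts. Cohort 1 alone gave 6 and cohort 2 alone 0. An ANOVA of 24SD against HC, adjusted by Benjamini-Hochberg, gave 289 with the methods' removal of values over 2 SD and 45 with no removal. It is not the study's own test, which also held 72SD and read presence-filtered genes at an unadjusted p. Without 24SD replicate 30 and HC replicate 3, the arrays with the highest GAPDH 3' to 5' ratios, the 12 calls became 30. Without HC replicates 6 and 17, which lay apart from their cohort, they became 3. Both choices were made after seeing the data. Among the brighter genes the 45 calls became 27 with median centring (24 higher), 2 without the cohort term, 26 in cohort 1 alone, 0 in cohort 2 alone, 20 after standardizing, 201 with the ANOVA and removal, 73 without 24SD 30 and HC 3, and 29 without HC 6 and 17, and stayed between 34 and 48 under the other 8 settings. The share of higher calls among all probe sets was 58.3%, against 68.4% with quantile normalization and 85.0% with median centring, and at an unadjusted p under 0.05 it was 36.9%, 45.0% and 58.9%.

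With 1 array left out, the calls over all probe sets ranged between 8 and 34, with 19 without HC replicate 13, 25 without HC 16, 34 without 24SD 30 and 30 without 24SD 31 beyond 1.5 times the total. Among the brighter genes they ranged between 8 and 75: 74 without HC 11 and 75 without 24SD 30, and 24, 11, 25, 21 and 29 without HC 1, 2, 4, 17 and 9, and 18, 22, 25, 20, 10, 8, 27, 26 and 28 without 24SD 20, 21, 22, 23, 28, 32, 33, 34 and 35. In the fits among the brighter genes, Synpo, Per2, Sult1a1, Adipor2, Gda, Fryl, Casp2 and Mmp14 were called in all 33. Reg1a and the dim Ret probe set were followed in the fits over all probe sets and were called in all 33 of those.

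The cohort difference had 0 calls over all probe sets and 2 among the brighter genes (0 without HC 6 and 17), and 24SD against 24NES had 2 and 0. No paired analysis was possible because 24SD and HC arrays share no replicate numbers. The number of arrays, not the signal over background, which the value table does not hold, was the limit that could be examined.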
